A study of Mus musculus with 13 samples.

Results

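The platelet and megakaryocyte genes described here are Itga2b, Treml1, Mpig6b, Tmem40, Gp9, Gp1bb, Gp6 and Ppbp, 8 of the 56953 genes in the count table. They were picked by symbol, after results of these data were known, because their levels were high in the libraries of mice given both drugs. Those levels are therefore given as a description, with no test. Of the 8, 7 had counts and passed the low-count filter that left 18055 genes for testing, while Gp1bb had 0 counts in all 13 libraries. All mice were ApoE-/-, lacking apolipoprotein E and prone to atherosclerosis, and all ate a Western diet (WD) for 16 weeks from an age of 6 weeks. RNA came from the whole aorta. The WD group had no drug (5 libraries), the auranofin group had 3 mg/kg/day of this gold compound in the diet (3 libraries), the atorvastatin group had 10 mg/kg/day of this statin (3 libraries), and the combination group had both drugs at those doses (2 libraries). Every group thus shared the genotype and the diet, and no mice with normal Apoe or on another diet were analysed here. The labels did not tie a library to a named mouse, so p-values measure only the spread between these samples.

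Platelets are small blood cells without a nucleus that are shed by megakaryocytes, large cells of the bone marrow and lung, and they carry RNA made in those cells. They bind to damaged vessel walls through surface glycoproteins, clump through an integrin that holds fibrinogen, and release stored chemokines and clotting proteins. In atherosclerosis platelets adhere to inflamed endothelium and to ruptured plaques. In RNA of a whole tissue, more cells of a type and more RNA per cell cannot be told apart, and neither can platelets inside vessels and platelets bound to the wall.

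The sequence before the start of these genes is shown because the members had their highest level in the same library, and because GATA and ETS family factors are known regulators of megakaryocyte genes. Both strands of the 250 bases before each start were searched for GATA letters (AGATAA and its close variants with other outer bases, AGATAG as one, TGATAA as another and TGATAG as the last) and for ETS letters (GGAAGT, or GGAAGC as its variant), and the GATA and ETS letters cannot be the same match. The sequences are from RefSeq on build GRCm38.p6, while the counts are on GRCm39, and all 8 members had an entry. Capitals mark the matches, which read as the reverse complement where the motif lies on the other strand. Mpig6b (chr17:35066185-35066434, minus strand) held a match of each kind, Gp6 (chr7:4397745-4397994, minus strand) a GATA match, Itga2b (chr11:102469884-102470133, minus strand) a pair of ETS matches close to the start, and Ppbp (chr5:90768268-90768517, plus strand) an ETS match.
Mpig6b: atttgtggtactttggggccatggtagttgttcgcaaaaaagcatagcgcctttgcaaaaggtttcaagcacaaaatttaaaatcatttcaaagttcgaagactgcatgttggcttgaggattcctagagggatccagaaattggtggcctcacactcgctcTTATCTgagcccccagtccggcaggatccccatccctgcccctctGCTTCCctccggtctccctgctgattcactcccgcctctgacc
Gp6: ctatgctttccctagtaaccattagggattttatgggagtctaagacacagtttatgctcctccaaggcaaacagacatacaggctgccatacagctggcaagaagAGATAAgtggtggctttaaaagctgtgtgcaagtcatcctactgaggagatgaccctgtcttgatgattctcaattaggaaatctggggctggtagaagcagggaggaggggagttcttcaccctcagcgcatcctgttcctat
Itga2b: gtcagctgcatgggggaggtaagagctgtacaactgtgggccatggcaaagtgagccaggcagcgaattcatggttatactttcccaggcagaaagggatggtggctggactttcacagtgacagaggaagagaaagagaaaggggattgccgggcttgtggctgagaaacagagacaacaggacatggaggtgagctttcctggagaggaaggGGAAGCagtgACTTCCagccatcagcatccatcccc
Ppbp: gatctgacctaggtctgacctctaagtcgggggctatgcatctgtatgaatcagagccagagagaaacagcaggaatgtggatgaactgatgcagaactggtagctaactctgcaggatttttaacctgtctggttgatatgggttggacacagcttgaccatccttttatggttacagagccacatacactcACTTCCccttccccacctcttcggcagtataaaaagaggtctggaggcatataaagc
The GATA match of Mpig6b began 88 bases before the start and that of Gp6 144 bases before it. Over the 8 members, 4 had a GATA match and 6 an ETS match in at least 1 window, and Treml1 had neither. Of all 27025 genes with an entry, 29.7% had a GATA match and 40.4% an ETS match, and of 67 other platelet genes 26.9% and 52.2%. A match is only a string of letters, and binding was not measured.

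The 13 libraries held 19703683 to 26079566 counts. TMM scaling factors ran from 0.629 to 1.23, and mitochondrial genes took 9.36% to 38.8% of the counts, with 11.3% in combination 1 and 19.1% in combination 2. Levels are given as CPM, which scales each count to a fixed TMM-adjusted library total. CPM does not correct for gene length, so a level is compared between libraries and not between genes. The smooth muscle list (Acta2, Myh11 and 4 others) summed to 5913 to 26600 CPM, so the aortic wall was present in every library. Combination 2 stood apart in heart muscle genes, whose 9 listed members summed to 1736 CPM there, to 34.3 in combination 1 and to 13.3 to 493 in the 11 libraries of the other groups.

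All 7 measured members were at their highest in combination 1, each at least 2-fold above the next library. Combination 1 was the highest library for 2.6% of all genes tested and stood at least 2-fold above the next one for 0.111%, which is 20 genes. Summed over the 8 members, the level was 96.3 CPM in combination 1 and 24.3 in combination 2, against a range of 4.21 to 24.4 and a median of 12.6 over the other 11 libraries. Combination 2 was at rank 3, just under auranofin 1. The pattern therefore rests mainly on 1 of the 2 combination libraries.

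**Figure D1:**
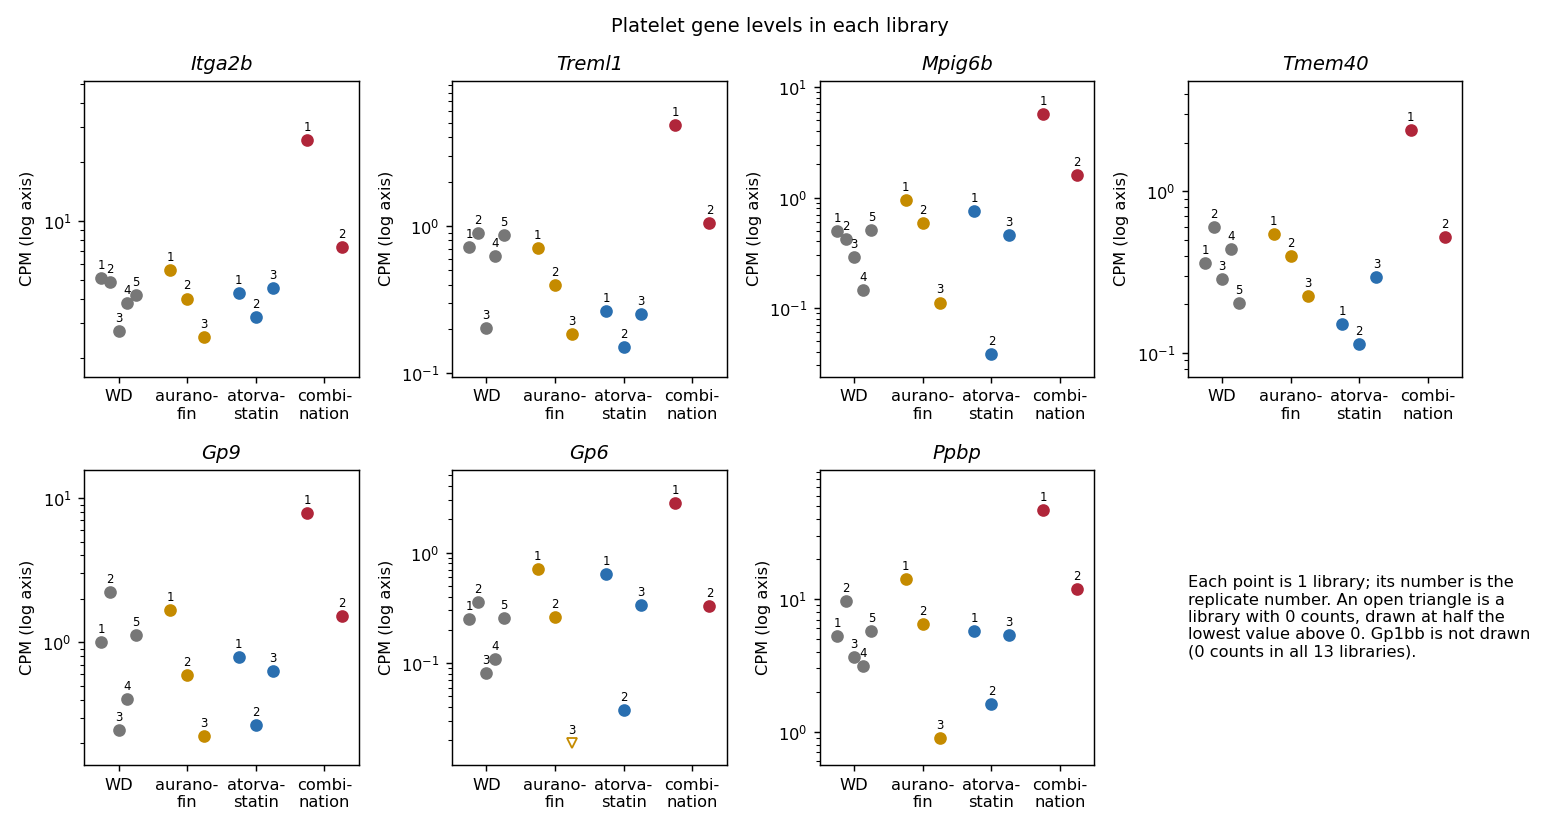
CPM of the 7 members with counts in each of the 13 libraries, on a log axis, with each point 1 library and its number the replicate. Combination 1 is the highest point in every panel, while combination 2 lies above all 11 libraries of the other groups for Itga2b, Treml1 and Mpig6b and within their range for Tmem40, Gp9, Gp6 and Ppbp.

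Gp9 (ENSMUSG00000030054) encodes glycoprotein IX, a subunit of the receptor through which platelets hold von Willebrand factor. Its level was 7.88 CPM in combination 1 and 1.51 in combination 2. WD 1 to WD 5 had 1.00, 2.22, 0.245, 0.402 and 1.12 CPM, auranofin 1 to 3 had 1.67, 0.593 and 0.223, and atorvastatin 1 to 3 had 0.794, 0.266 and 0.630. WD 2 and auranofin 1 were thus both above combination 2. As a ratio, the WD libraries differed among themselves by more than the 2 combination libraries did.

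Gp1bb (ENSMUSG00000050761), another subunit of that receptor, had no count in any library. In the GENCODE vM21 annotation of GRCm38, 91.1% of the Gp1bb gene model overlaps Sept5 and 92.9% overlaps Gm49601, both on the same strand. The table lists these genes as Septin5 and Gm49601. Septin5 was at 15.1 CPM in combination 1, 8.69 in combination 2 and 4.74 to 15.6 in the other 11 libraries, and Gm49601 had 0 counts throughout. How reads on shared sequence were counted is not given in the sources used here, so the 0 counts of Gp1bb are no measure of its RNA.

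Gp6 (ENSMUSG00000078810) encodes glycoprotein VI, the main receptor by which platelets are activated on collagen. It had 76 counts in combination 1 (exact Poisson 95% interval 59.9 to 95.1, counting error only), 7 in combination 2 (2.81 to 14.4) and 17 in auranofin 1 (9.90 to 27.2). In CPM these were 2.81, 0.331 and 0.709. The remaining auranofin libraries had 0.263 and 0, the latter allowing up to 3 counts, WD 1 to 5 had 0.251, 0.360, 0.0817, 0.110 and 0.254, and atorvastatin 1 to 3 had 0.643, 0.0380 and 0.336. Combination 2 lay inside the range of the other groups.

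Itga2b (ENSMUSG00000034664) encodes integrin alpha IIb, which pairs with integrin beta 3 to bind fibrinogen. Combination 1 had 25.7 CPM and combination 2 had 7.32. WD 1 to 5 had 5.08, 4.86, 2.74, 3.80 and 4.21, auranofin 1 to 3 had 5.63, 4.02 and 2.57, and atorvastatin 1 to 3 had 4.27, 3.23 and 4.53. The 2 combination libraries were the 2 highest of the 13. Among the other 11 the range was narrow, and combination 1 stood 6.11-fold above their median while combination 2 stood 1.74-fold above it.

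Mpig6b (ENSMUSG00000073414) encodes a receptor of megakaryocytes and platelets that inhibits activation. It was at 5.69 CPM in combination 1 and 1.61 in combination 2. In WD 1 to 5 it was at 0.501, 0.420, 0.286, 0.146 and 0.507, in auranofin 1 to 3 at 0.959, 0.593 and 0.112, and in atorvastatin 1 to 3 at 0.756, 0.0380 and 0.462. Both combination libraries exceeded the other 11, and 7 of those 11 had 10 or fewer counts. The Mpig6b gene model overlaps Ly6g6c on the opposite strand over 22.8% of its length in GRCm38, and these libraries do not keep strand, but Ly6g6c had 0 to 6 counts per library.

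Treml1 (ENSMUSG00000023993) encodes a membrane protein of platelet granules that reaches the surface on activation. Its level was 4.81 CPM in combination 1 and 1.04 in combination 2. WD 1 to 5 stood at 0.716, 0.901, 0.204, 0.621 and 0.862, auranofin 1 to 3 at 0.709, 0.395 and 0.186, and atorvastatin 1 to 3 at 0.265, 0.152 and 0.252. The combination libraries were again the 2 highest, although combination 2 had 22 counts where WD 2 had 15. The atorvastatin libraries were low as a group.

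Tmem40 (ENSMUSG00000059900), a transmembrane protein gene, was at 2.40 CPM in combination 1 and 0.520 in combination 2. WD 1 to 5 had 0.358, 0.601, 0.286, 0.438 and 0.203, auranofin 1 to 3 had 0.542, 0.395 and 0.223, and atorvastatin 1 to 3 had 0.151, 0.114 and 0.294. Combination 2 was at rank 4 of 13. It had 11 counts where combination 1 had 65.

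Ppbp (ENSMUSG00000029372) encodes pro-platelet basic protein, the precursor of the chemokine CXCL7 in platelet granules. Combination 1 had 47.0 CPM from 1270 counts and combination 2 had 11.95 CPM from 253. WD 1 to 5 had 5.23, 9.61, 3.68, 3.10 and 5.73 CPM, auranofin 1 to 3 had 14.2, 6.46 and 0.894, and atorvastatin 1 to 3 had 5.75, 1.63 and 5.33. Auranofin 1 was above combination 2. As a ratio, auranofin 1 and auranofin 3 differed more from each other than combination 1 did from combination 2.

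Set against the median of the other 11 libraries, combination 1 was 6.11-fold (Itga2b) to 12.5-fold (Gp9) higher. The same ratio for combination 2 ran from 1.30 for Gp6 to 3.48 for Mpig6b. Between the 2 combination libraries the members differed by 3.52-fold (Itga2b) to 8.50-fold (Gp6), more than the 1.74-fold that separated combination 2 from the median for Itga2b. In 3 of the 7 members, Itga2b, Treml1 and Mpig6b, both combination libraries were above all 11 others, as in 0.233% of all genes tested. Combination 2 alone was above all 11 in those same 3 members, and in 7.05% of all genes.

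Fitted over all 13 libraries, the log2 fold change of the combination against the mean of the other 3 groups was 2.02 (SE 0.34) for Itga2b, 2.87 (0.51) for Treml1 and 3.04 (0.64) for Mpig6b. It was 2.28 (0.49) for Tmem40, 2.6 (0.68) for Gp9, 2.47 (0.84) for Gp6 and 2.42 (0.63) for Ppbp. The fitted change was above 0 for 47.5% of all genes. Without combination 1, the values were 0.84 for Itga2b, 1.37 for Treml1, 1.85 for Mpig6b, 0.78 for Tmem40, 0.96 for Gp9, 0.21 for Gp6 and 1.11 for Ppbp. All 7 stayed above 0 and all 7 were smaller. Against WD alone, a comparison that uses the same combination libraries, the values ran from 1.96 for Tmem40 to 3.29 for Mpig6b, and without combination 1 from 0.46 to 2.10 for the same genes, beside 49% of all genes above 0.

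Neither drug given alone changed a member past the threshold. The spread of each gene was estimated over all 13 libraries. The gap between the 2 combination libraries, whose values served to pick the members, thus enters the SE and p-values of both single-drug comparisons. With edgeR's quasi-likelihood test, adjusted with Benjamini-Hochberg over all 18055 genes, 0 of 7 members passed an adjusted p of 0.05 for auranofin against WD or for atorvastatin against WD, and so did 0% of all genes in each comparison. At an unadjusted p under 0.05 the counts over all genes were 1173 for auranofin and 2648 for atorvastatin, and DESeq2 called 2 and 0. For auranofin the log2 fold changes were -0.60 (SE 0.62, adjusted p 0.762) for Treml1, -0.23 (0.79, 0.936) for Gp9, -0.02 (0.38, 0.987) for Itga2b and 0.04 (0.57, 0.985) for Tmem40. Ppbp, Mpig6b and Gp6 were at 0.40 (0.70, 0.867), 0.57 (0.78, 0.823) and 0.65 (1.04, 0.851). Above 0 were 4 of 7 members and 46.4% of all genes.

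For atorvastatin against WD, Treml1 was the member farthest from 0, at -1.54 (SE 0.65, unadjusted p 0.0357, adjusted p 0.340 in the edgeR test). Its mean level was 0.223 ± 0.0618 CPM (SD, n = 3) with atorvastatin and 0.661 ± 0.279 (n = 5) in WD, where WD 3 overlapped the atorvastatin range. Tmem40 was at -0.998 (SE 0.61, adjusted p 0.390), Gp9 at -0.79 (0.81, 0.585), Ppbp at -0.36 (0.71, 0.791) and Itga2b at -0.04 (0.38, 0.957). Mpig6b and Gp6 were above 0, at 0.18 (0.79, 0.911) and 0.71 (1.01, 0.699). The 5 members below 0 compare with 50.8% of all genes. Both single-drug comparisons share the WD libraries with each other.

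**Figure D2:**
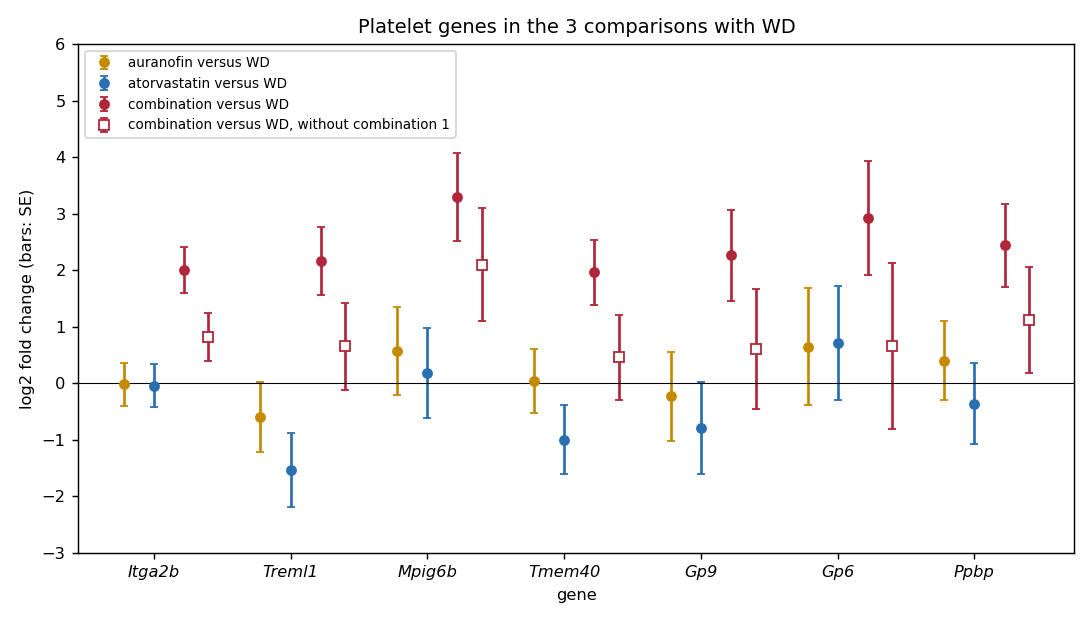
Log2 fold change of the 7 members against WD for auranofin, atorvastatin and the combination, with bars of 1 SE and the combination without combination 1 as open squares. The combination values lie between 1.96 and 3.29 and fall to between 0.46 and 2.10 without combination 1, while the single-drug values lie between -1.54 and 0.71.

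Among the libraries without both drugs, the members tended to be high or low in the same libraries. Of those 11 libraries, auranofin 1 and WD 2 were each among the top 3 for 6 of the 7 members. Atorvastatin 2 was among the lowest 3 for all 7 and auranofin 3 for 6. Libraries of 1 group thus lay at both ends, as auranofin 1 and auranofin 3 did. Over all genes tested, WD 2 was the highest of the 13 libraries for 24.9% and auranofin 1 for 4.24%, so a high rank of WD 2 is common. Itga2b made up 23.1% (auranofin 1) to 61.1% (auranofin 3) of the counts of the 8 members and Ppbp made up 58.1% and 21.2% in the same libraries. In combination 1 these shares were 26.7% and 48.8%, and in combination 2 they were 30.2% and 49.2%.

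The genes most like the members over the 13 libraries were found from the mean absolute difference between standardised log2 CPM values, in which the members themselves scored 0.191 to 0.345. Gp5, a further subunit of the von Willebrand factor receptor, came first at 0.260, and Nrgn, which encodes the calmodulin-binding protein neurogranin, second at 0.266. Pls1 was at 0.392 and Draxin at 0.411, and Alox12, Rgs18, F2rl2, Ctla2a and Gp1ba were also among the 10, the last at 0.558. Gp1ba encodes the subunit that binds von Willebrand factor itself. Without combination 1 the first 2 were the same, Gp5 at 0.394 and Nrgn at 0.424, and the other 8 were different genes, such as Amn1 and Cct3. Of the 10 genes, 5 were on a platelet list with all libraries and 1 without combination 1. Nrgn had 28.7 CPM in combination 1, 5.34 in combination 2 and 1.53 to 6.44 elsewhere.

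The 20 genes at least 2-fold above the next library in combination 1 held the 7 members and 5 of 82 other platelet genes tested (6.1%). The other 8 were among the remaining 17966 genes (0.0445%). The platelet lists are not complete, so a gene outside them may still be expressed in platelets. Those 5 included Gp5 (5.26-fold), Alox12 (3.47-fold), Tubb1 (3.38-fold) and F2rl2 (2.28-fold). Of the 8, Nrgn (4.45-fold) and Rgs18 (2.10-fold) were named above with Pls1 and Draxin, and Igkv13-84 (4.49-fold, an immunoglobulin segment), Gm28609 and Lrrn3 are named after their values were seen. The last gene has no symbol. Slc6a4, the serotonin transporter that platelets use to take up serotonin, was also chosen after its values were seen: it stood at 2.26 CPM in combination 1 and at 1.65 in combination 2, both above the highest other library at 1.13.

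**Figure D3:**
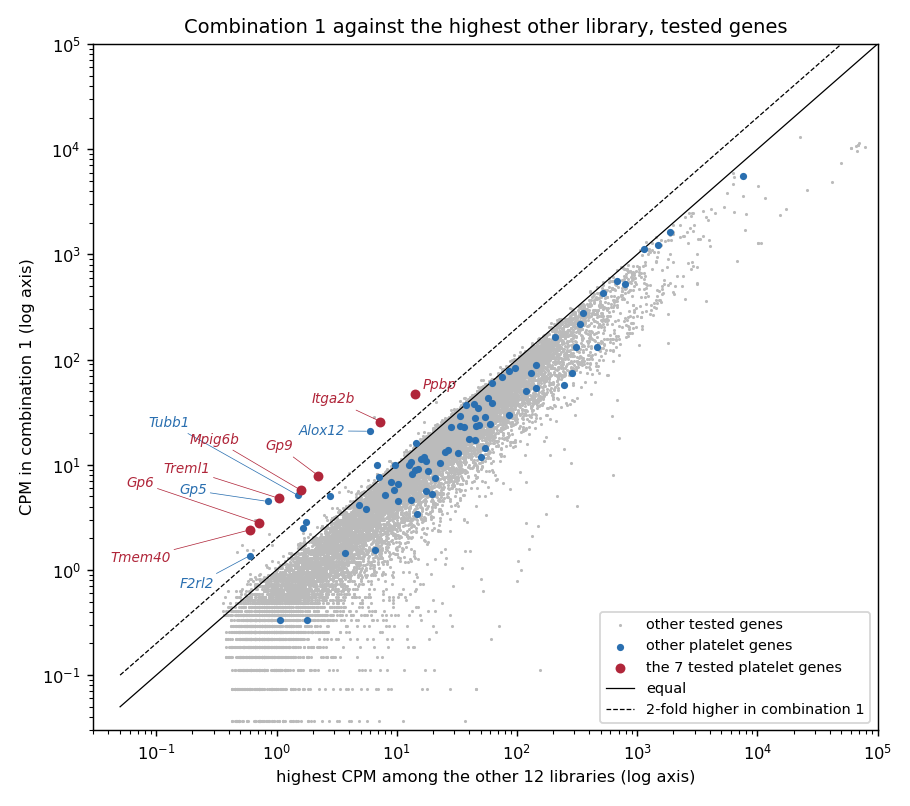
CPM in combination 1 (vertical, log axis) against the highest CPM among the other 12 libraries (horizontal, log axis) for tested genes with a count in combination 1, less 1 gene. The 7 members and the 4 labelled other platelet genes lie above the dashed 2-fold line. Of the 20 genes at least 2-fold higher in combination 1, 1 is not drawn.

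The other 85 platelet genes, in 5 lists (receptors, granule content, signalling, platelet formation and megakaryocyte regulators), were in the count table and 82 were tested. In the test of the combination against the other 3 groups, edgeR called 0 of 82 at an adjusted p of 0.05, as it did 0% of all genes. At an unadjusted p under 0.05, 7 of the 82 were higher and 0 lower, beside 162 higher and 24 lower among all genes. The fitted change was above 0 for 54 and below 0 for 28, with a median of 0.10, and for all genes the median was -0.01. Without combination 1, 0 of 83 were below an unadjusted p of 0.05, beside 525 of all genes, and 48 were above 0, with a median of 0.07 beside -0.03 for all genes. Auranofin or atorvastatin alone changed 0 of 82 against WD past the threshold.

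Receptors held most of the genes that went with the members. Of 19, 7 had their highest level in combination 1, beside 2.6% of all genes tested. At least 2-fold above the next library were 3, beside 0.111% of all genes tested. Gp5 was at 4.47 CPM in combination 1, 0.850 in combination 2 and 0.0372 to 0.672 elsewhere, a log2 fold change of 2.96 (SE 0.68, adjusted p 0.544 in the edgeR test). F2rl2, a protease-activated receptor that assists thrombin signalling, was at 1.37, 0.425 and 0.0759 to 0.601 CPM, with 1.67 (0.60, 1.00). Abundant receptor genes did not stand out: Itgb3, the partner of Itga2b, was at 74.6, 73.5 and 20.2 to 131 CPM, Fcer1g, the signalling chain of Gp6, at 74.96, 64.6 and 15.4 to 290, and Cd9 at 427, 257 and 201 to 523.

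Unlike Ppbp, 0 of 15 granule genes had their highest level in combination 1, which is near the share of 2.6% of all genes tested. Pf4, platelet factor 4 and a chemokine stored beside Ppbp, is named after its values were seen, and stood at 23.2 CPM in combination 1, 12.1 in combination 2 and 4.95 to 45.4 elsewhere, the highest in WD 2. Its log2 fold change was 0.36 (SE 0.49, adjusted p 1.00 in the edgeR test). F5, clotting factor V, was at 0.87 (SE 0.60) and Srgn, the granule proteoglycan serglycin, at -0.40 (0.59). Clu, Serpine2, Ltbp1 and Angpt1 lay between -0.01 and 0.38. WD 2, where Pf4 was highest, was also the highest library for the macrophage list (3085 CPM) and for 24.9% of all genes tested. Which cells the Pf4 RNA came from was not tested.

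Beside 2.6% of all genes tested, 1 of 21 signalling genes had its highest level in combination 1. That was Alox12, the 12-lipoxygenase of platelets, at 20.8 CPM in combination 1, 6.00 in combination 2 and 2.11 to 5.78 elsewhere, with a log2 fold change of 1.66 (SE 0.37, adjusted p 0.465 in the edgeR test). Both combination libraries were above the other 11, though combination 2 only just. Fermt3, which activates the integrin, was at 0.53 (SE 0.51), Tbxas1, thromboxane synthase, at 0.36 (0.69), Stim1 at 0.25 (0.20), Tln1 at 0.12 (0.35) and Rap1b at 0.03 (0.22).

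Among genes of platelet formation, 3 of 17 tested were highest in combination 1, beside 2.6% of all genes tested. Tubb1, the tubulin of the platelet microtubule coil, was at 5.10 CPM there, 1.51 in combination 2 and 0 to 1.13 elsewhere, with a log2 fold change of 2.81 (SE 0.76, adjusted p 0.962 in the edgeR test). The cytoskeletal genes Flna, Actn1 and Tpm4 were at 0.09, 0.12 and 0.06, and Plek and Bin2 at 0.67 and 0.52. Of the regulators 1 of 10 tested was highest in combination 1, again beside 2.6% of all genes tested. It was Nfe2, a transcription factor of late megakaryocytes, at 2.51, 0.378 and 0.189 to 1.65 CPM. Its log2 fold change of 1.40 (SE 0.67, adjusted p 1.00) was -0.54 without combination 1. Mafg, Etv6, Mecom, Zfpm1 and Fli1 were at 0.04, -0.17, -0.09, -0.23 and -0.21. Gata1, a master factor of megakaryocytes and red cells named after its values were seen, was not tested. It had 9 counts in combination 1 and 1 in combination 2. Its level in CPM was also highest in combination 1, on few counts, and the highest level in the other groups was 0.180 CPM (WD 2).

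The platelet genes that went with the members were mostly, but not only, at a low CPM in the other libraries, and not all genes at a low CPM did so. CPM also depends on gene length, so this is not a ranking by RNA amount. Of 19 other platelet genes with a median under 5 CPM over the 11 libraries without both drugs, 10 (52.6%) had their highest level in combination 1. Of 63 at or above that level, 2 (3.17%) did. Among the remaining tested genes the shares were 2.59% and 2.46%. This split was made after the values were seen and has no test, and many genes of the second kind, such as Flna at a median of 4645 CPM, are also expressed by cells of the vessel wall.

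No summed marker list of another blood or tissue cell had its highest level in combination 1. The red cell list had 13 of its 14 genes in the table. Highest in combination 1 were 0 of its 9 tested genes, beside 2.6% of all genes tested. Its summed level was 5090 CPM in combination 1, rank 4 of 13, and 2584 in combination 2. The range was 1090 to 11344 in WD, 2498 to 9550 with auranofin and 1394 to 5039 with atorvastatin. The members had 18.9 counts per 1000 red cell counts in combination 1, 12.1 in WD 1, 9.77 in auranofin 1 and 9.40 in combination 2, and 1.08 to 7.07 in the other 9 libraries. By this ratio combination 1 was still the highest, but by 1.57-fold over WD 1, and combination 2 was at rank 4.

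The 11 neutrophil genes summed to 120 and 115 CPM in the 2 combination libraries, beside 7.85 to 198 in WD, 85.6 to 136 with auranofin and 51.1 to 106 with atorvastatin. Only 2 of the 11, the granule genes Ngp and Camp, had 0 counts in combination 1, and 0 to 7 and 0 to 4 counts elsewhere. In combination 1 the list summed to 3246 counts, all from its other genes. The 11 marrow progenitor genes placed combination 1 at rank 12 of 13, with 2 of the 11 genes, Elane and Ctsg, at 0 counts there. In the other libraries 1 to 6 of the 11 were at 0 counts, and Elane, Ctsg and Mpo had at most 2 counts in every library. The list summed to 3757 counts in combination 1, nearly all from its other genes. Whether those counts came from marrow cells was not tested. Combination 1 was at rank 5 for the macrophage list (1417 CPM), 12 for the endothelial list (613 CPM), 9 for the T and NK cell list, 4 for the B cell list and 10 for the lung epithelium list. The part of blood content or of other cell types in the platelet values was not tested beyond these measurements.

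**Figure D4:**
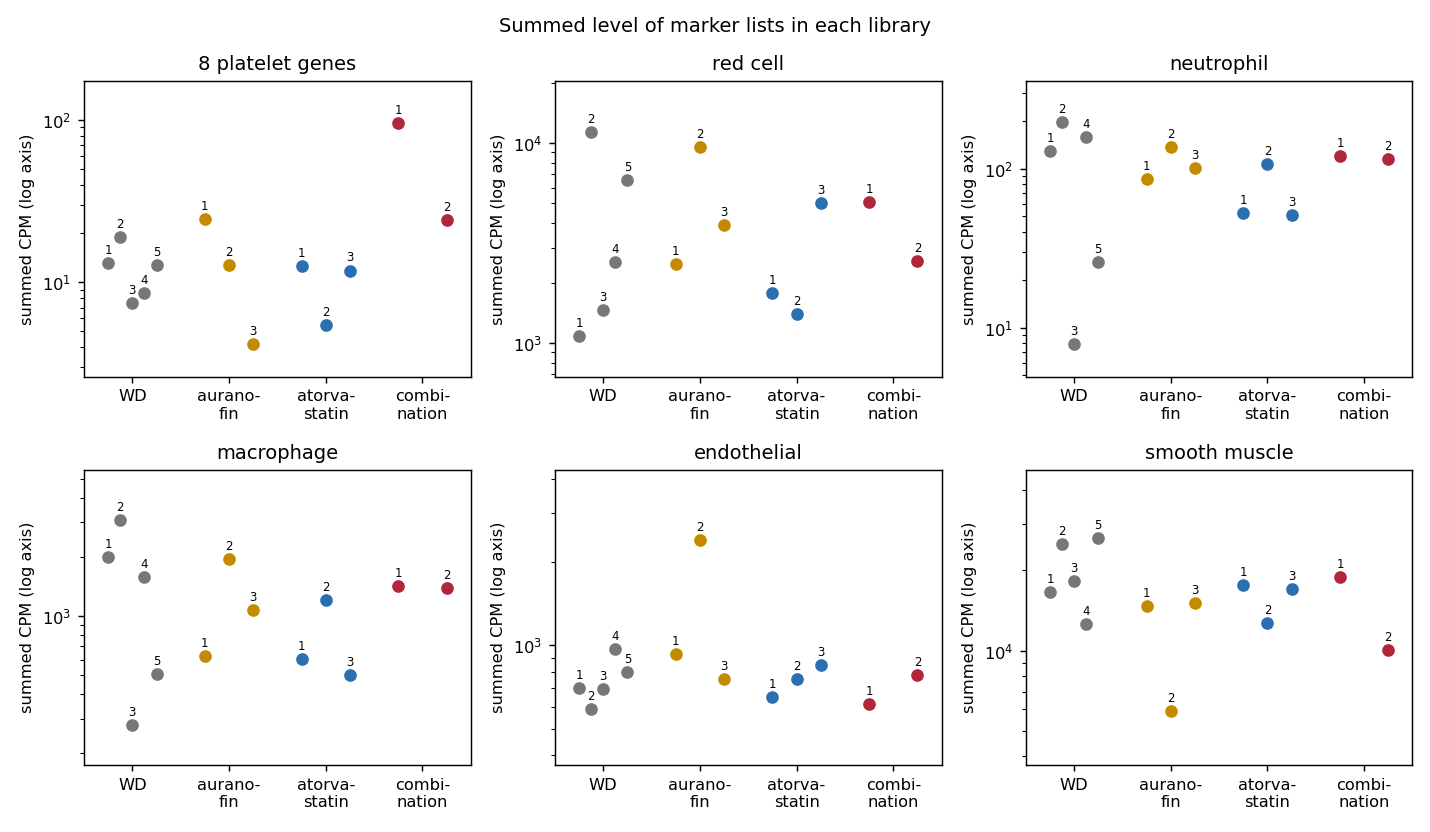
Summed CPM of the 8 members and of 5 marker lists in each library, on log axes, with each point 1 library and its number the replicate. Combination 1 is the highest library only in the panel of the members, and ranks between 3 and 12 of 13 in the others.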

How the data were processed

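RNA of whole aorta was measured in 13 libraries of 4 groups. Per the submitters' processing notes, reads were aligned to GRCm39 with STAR 2.6.1d, gene counts came from featureCounts (Subread 1.6.3), and per the labels' protocols the poly-A libraries were non-stranded. The deposited values are raw counts per gene. How featureCounts treated reads on overlapping genes is not given in the sources used here. Genes were filtered with filterByExpr, scaled with TMM and fitted with the quasi-likelihood test of edgeR 4.0.16 in R 4.3.3, 1 mean per group over all 13 libraries, two-sided, with Benjamini-Hochberg adjustment over 18055 genes and a threshold of 0.05. The filter kept the 7 members with counts, and a gene could pass it through the 2 combination libraries alone. The SE is the fold change divided by the square root of F. No pair of libraries was alike (smallest chi-square per degree of freedom 17.2 over 78 pairs). The fit was tested on simulated data in which the change was the same in both combination libraries, unlike the members in these data. DESeq2 1.42.0 and limma 3.58.1 served as alternatives, and figures were drawn with matplotlib 3.10.9. The members and gene lists were chosen with earlier results of these data known. Named genes were the members, per platelet list the 3 most abundant and the 3 with the largest change, and the 10 most like the members. The log2 CPM used for likeness had a prior count of 2. Of the genes the rule names, 1 is not reported here.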

Additional observations from a re-analysis of the deposited data

Results flagged for a closer look

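F2rl2, the protease-activated receptor gene, was at 0.601 CPM in WD 2, far from the other 4 WD libraries, whose highest was 0.203 CPM, and the gap was 0.767 of the range of the 5. WD 2 was also the highest of the 5 for Treml1, Tmem40, Gp9, Gp6 and Ppbp. That rank is not particular to platelet genes, as WD 2 was the highest of all 13 libraries for 24.9% of all genes tested. The F2rl2 value was the only 1 of 45 values examined in the WD group to stand apart in that way, and chance would do so in about 5% of groups.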

How the results depend on the processing

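The 7 members kept a positive log2 fold change in both comparisons of the combination, under every alternative in which each was fitted. The values without combination 1 were the smallest. The members were picked for high levels in these libraries, so a positive sign was close to fixed beforehand and is no support. No member or named platelet gene crossed an adjusted p of 0.05 in the comparisons in which it was tested, although the smallest values were 0.0596 for Gp5 and 0.0639 for Alox12. Other signs were less stable. Signs changed in 43 of 597 values of the named platelet genes, in 16 of 136 of the members for auranofin and in 10 of 136 for atorvastatin, and the cause was not tested. Leaving out combination 1 leaves that group with 1 library, which is assumed to vary like the others. The replicate numbers do not pair the samples: 5 of 15 same-number pairs correlated above 0.1 (range -0.31 to 0.43) and 3 of 11 libraries correlated best with their own number. The fit with a replicate block called 0 genes in each of the 4 comparisons.

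The 0 genes called became 32 without the low-count filter, 4 with 2 groups and 7 in DESeq2 for the combination against the other 3 groups, and 9 and 4 (no filter, DESeq2) against WD. They became 13 and 2 for auranofin and 2 without the filter for atorvastatin. With 1 library left out the counts were 0 to 21 and 0 to 10 for the combination comparisons, the highest without combination 1, and 0 to 0 for the single drugs. Unadjusted p under 0.05 ranged over all alternatives from 126 to 627, 118 to 823, 378 to 2130 and 327 to 4169 genes in the 4 comparisons.

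Signs that turned for the combination against the other 3 groups were, with the replicate block, Itgb3 0.32, Ltbp1 0.35, Rap1b -0.037, Tpm4 -0.066 and Fcer1g -0.13. Fcer1g was also at -0.0086 with DESeq2 size factors, -0.0038 with a stricter filter, -0.19 with 2 groups and -0.0093 in DESeq2. In limma voom, Serpine2 was at -0.00073 and Mafg at -0.064. For auranofin, the block gave -0.15 for Tmem40 and -0.19 for Ppbp, and voom gave 0.054 for Gp9, -0.32 for Gp6 and -0.0016 for Ppbp. For atorvastatin, Mpig6b was at -0.097 with the block and -1.17 in voom, and Gp6 at -0.44 in voom.

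For the combination against the other 3 groups, leaving out 1 library gave -0.26 to 0.48 for Cd9, -0.16 to 0.070 for Itgb3, -0.12 to 0.30 for Fcer1g, -0.24 to 0.42 for Serpine2, -0.21 to 0.16 for Ltbp1, -0.13 to 0.34 for Tln1, -0.0064 to 0.087 for Rap1b, -0.18 to 0.31 for Flna, -0.32 to 0.47 for Actn1, -0.00042 to 0.13 for Tpm4, -0.024 to 0.11 for Mafg, -0.54 to 2.19 for Nfe2 and -0.51 to 0.042 for Fli1. For auranofin, it gave -0.34 to 0.23 for Itga2b, -0.17 to 1.08 for Mpig6b, -0.31 to 0.34 for Tmem40, -1.31 to 0.27 for Gp9, -0.87 to 1.27 for Gp6 and -0.60 to 0.93 for Ppbp. For atorvastatin, it gave -0.17 to 0.092 for Itga2b, -0.59 to 0.72 for Mpig6b, -0.17 to 1.24 for Gp6 and -0.67 to 0.025 for Ppbp.

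Counts of other platelet genes at an unadjusted p under 0.05, an alternative chosen after seeing the data, were 0 to 9 over the alternatives, 0 without combination 1. Depth limits the members with few counts, such as Gp6.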
